A study of Mus musculus with 6 samples.

Results

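The 5 genes described here are the adult alpha-globin genes Hba-a1 and Hba-a2, the adult beta-globin genes Hbb-bs and Hbb-bt, and Alas2, which encodes the red cell form of the enzyme that starts heme synthesis. They are 5 of the 32287 genes kept from 6 spatial transcriptomics sections, and they were picked by name as a read on blood left in the tissue. Earlier results of these data showed the 4 globin genes to be lower in 5xFAD than in young cortex and hippocampus, so the 5xFAD values of these genes are given as a description with no test.

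Adult hemoglobin is built of a pair of alpha and a pair of beta chains, each holding a heme. Globin mRNA is made in erythroid precursors of the bone marrow and stays at high levels in reticulocytes, the youngest red cells of the blood, so that globin transcripts in a tissue sample usually come with blood in its vessels. Alas2 is restricted to the same lineage, whereas other tissues use Alas1. The mice were bled and flushed through the heart with cold saline before the brain was removed, which takes most but not all blood out of cerebral vessels.

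Each section was a thin coronal slice of the right hemisphere of a female mouse whose own Apoe gene had been replaced by human APOE4 or APOE3 (E4 and E3). There was 1 section of each genotype in each of 3 conditions: mice aged 12 months that carried the 5xFAD transgenes, whose expression is driven by the Thy1 promoter in neurons (E4 5xFAD, E3 5xFAD), aged mice of 24 months (E4 aged, E3 aged) and young mice of 3 months (E4 young, E3 young). The 5xFAD mice therefore differed from the young mice in age as well as in transgenes. Barcoded spots, each larger than a cell, captured polyadenylated RNA, and each captured molecule was counted once by its unique molecular identifier (UMI).

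In all, 14524 spots in the deposited tissue mask whose barcodes the matrices also held were used, between 1688 (E4 aged) and 2773 (E3 5xFAD) in a section, with 20343701 to 37266232 UMIs per section and medians of 10081.5 to 15360 UMIs per spot. The matrices lacked 2455 of the 16979 mask spots and held 2736 barcodes outside the masks. In the 5 sections other than E3 5xFAD, the matrix barcodes overlapped the mask better after a quarter-turn of the mask (0.868 to 0.887) than without one (0.600 to 0.739), so each level below holds for the shared spots only, 75.9% of the mask in E4 aged. Human APP was counted at 91.2 and 63.1 UMIs per 1000000 UMIs (CPM) in E4 5xFAD and E3 5xFAD and at 0 to 0.320 CPM in the other 4 sections, and the mitochondrial and nuclear transcripts that track RNA quality summed to 92323 and 111762 CPM in the 5xFAD pair and to 126545 to 135460 CPM in the others. The 5xFAD pair also carries a file prefix of its own, so a difference in handling and the 5xFAD condition cannot be told apart.

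The globin genes lie in pairs of near-copies, which bears on how well the counts tell them apart. In Ensembl's GRCm38 annotation, Hba-a1 (chr11:32283511-32284465, plus strand) and Hba-a2 (chr11:32296489-32297298, plus strand) are 12023 bases apart, Hbb-bs (chr7:103826534-103828096, minus strand) and Hbb-bt (chr7:103812524-103813996, minus strand) are 12537 bases apart, and Alas2 lies alone at chrX:150547375-150570638 on the plus strand. Each globin gene has 3 exons and Alas2 has 11. The coding sequences of the pairs differ at 1 base each, C381T from Hba-a1 to Hba-a2 over 426 bases and C417T from Hbb-bs to Hbb-bt over 441 bases, counted from the first base of the start codon. The stretches around those differences, coding bases 351 to 410 of the alpha pair and 382 to 441 of the beta pair, are shown with the differing base in capitals because only these bases part the coding counts.

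Hba-a1: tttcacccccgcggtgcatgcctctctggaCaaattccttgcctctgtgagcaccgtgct

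Hba-a2: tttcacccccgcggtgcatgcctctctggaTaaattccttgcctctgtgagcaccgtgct

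Hbb-bs: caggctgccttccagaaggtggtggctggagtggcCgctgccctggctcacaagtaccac

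Hbb-bt: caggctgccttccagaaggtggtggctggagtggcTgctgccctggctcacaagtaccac

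Over the last 300 bases of the transcripts, where a 3′ library reads, 18.5% of the windows of 150 bases in Hba-a1 were also present in Hba-a2 and 7.95% the other way, while no window of that length was shared between Hbb-bs and Hbb-bt. Alpha counts could therefore be split less cleanly between the copies than beta counts, and the alpha genes are also given as a sum.

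The 4 globin genes moved together across the sections, as shown next, and the 220 bases before their RefSeq starts in GRCm38.p6 are printed for the alpha pair (by Hba-a1, chr11:32283452-32283671, plus strand), for Hbb-bs (chr7:103827929-103828148, minus strand), for Hbb-bt (chr7:103813924-103814143, minus strand) and for Alas2 (chrX:150547197-150547416, plus strand). Capitals mark every match on either strand to CACCC, the letters read by the erythroid factor KLF1, to CCAAT, to AGATAA, a form read by GATA factors, and to TATAA.

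Hba-a1: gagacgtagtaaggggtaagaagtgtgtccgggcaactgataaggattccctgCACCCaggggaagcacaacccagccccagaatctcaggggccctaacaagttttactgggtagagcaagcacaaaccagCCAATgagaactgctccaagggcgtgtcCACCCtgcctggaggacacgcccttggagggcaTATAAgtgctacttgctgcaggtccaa

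Hbb-bs: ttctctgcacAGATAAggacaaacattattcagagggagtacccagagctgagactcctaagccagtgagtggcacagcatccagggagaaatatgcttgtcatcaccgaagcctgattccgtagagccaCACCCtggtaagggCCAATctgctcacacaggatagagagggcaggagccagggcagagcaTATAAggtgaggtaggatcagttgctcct

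Hbb-bt: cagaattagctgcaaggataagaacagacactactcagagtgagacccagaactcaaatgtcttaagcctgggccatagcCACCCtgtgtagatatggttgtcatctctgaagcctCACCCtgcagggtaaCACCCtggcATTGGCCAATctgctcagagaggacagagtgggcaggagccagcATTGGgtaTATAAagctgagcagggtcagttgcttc

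Alas2: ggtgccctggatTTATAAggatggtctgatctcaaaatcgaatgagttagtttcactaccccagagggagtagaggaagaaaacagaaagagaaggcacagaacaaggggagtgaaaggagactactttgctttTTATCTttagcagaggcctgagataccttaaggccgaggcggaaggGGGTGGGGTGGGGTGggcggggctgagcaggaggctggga

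The stretch before Hba-a2 was the same as that before Hba-a1 at all 217 bases that the 2 windows share, whereas Hbb-bs and Hbb-bt had 121 of 219 compared bases in common. CACCC was present in 5 of 5 members and in 48.5% of 32851 RefSeq promoters of the same length, CCAAT in 4 members and 31.1%, TATAA in 5 members and 20.1%, and AGATAA in 2 members (Hbb-bs and Alas2) and 8.76%. The first 3 of these motifs stood together in the 4 globin genes and in 2.52% of promoters. These matches are a description of the letters and not a record of binding.

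Hemoglobin was highest in both aged sections and lowest in both 5xFAD sections, and all 4 globin genes kept that order. The summed level was 15.3 CPM in E4 5xFAD, 31.7 CPM in E3 5xFAD, 288 CPM in E4 aged, 362 CPM in E3 aged, 89.9 CPM in E4 young and 65.4 CPM in E3 young, from 490, 938, 5866, 11302, 3246 and 2438 UMIs. The exact Poisson 95% intervals of the 6 sums did not overlap (14.0 to 16.7 CPM in E4 5xFAD up to 355 to 368 CPM in E3 aged), and the highest was 23.7 times the lowest. These and all other intervals cover counting error only and say nothing of the spread between mice, which 1 section per group cannot give. More blood in a section and more globin RNA per red cell cannot be told apart in these spots.

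Hba-a1 was counted at 2.00 CPM in E4 5xFAD, 5.60 CPM in E3 5xFAD, 61.8 CPM in E4 aged, 83.6 CPM in E3 aged, 19.5 CPM in E4 young and 12.3 CPM in E3 young. Its copy Hba-a2 stood at 3.43, 7.97, 74.6, 94.3, 19.4 and 16.3 CPM in the same sections. Hba-a1 had fewer UMIs than its copy in every section but E4 young, where 706 and 702 were counted, and the ratio of the copies was furthest from 1 in E4 5xFAD, with 64 and 110.

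Hbb-bs, the more abundant beta gene, had 8.79 CPM in E4 5xFAD, 15.6 CPM in E3 5xFAD, 132 CPM in E4 aged, 158 CPM in E3 aged, 44.8 CPM in E4 young and 30.9 CPM in E3 young. Hbb-bt followed the same order at 1.06, 2.53, 19.7, 25.5, 6.09 and 5.93 CPM, with the young sections inside each other's counting intervals (5.31 to 6.95 CPM in E4 young, 5.17 to 6.77 CPM in E3 young). For Hba-a1, Hba-a2 and Hbb-bs no intervals of any 2 sections overlapped.

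Alas2 was at the floor of detection, with 2 UMIs in E4 5xFAD, 5 in E3 5xFAD, 17 in E4 aged, 21 in E3 aged, 8 in E4 young and 5 in E3 young, which is 0.0624 to 0.836 CPM. Per 1000 hemoglobin UMIs that is 4.08, 5.33, 2.90, 1.86, 2.46 and 2.05 Alas2 UMIs in the same order. The 2 aged sections had the most, and the intervals of the other 4 sections overlapped each other.

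**Figure D1:**
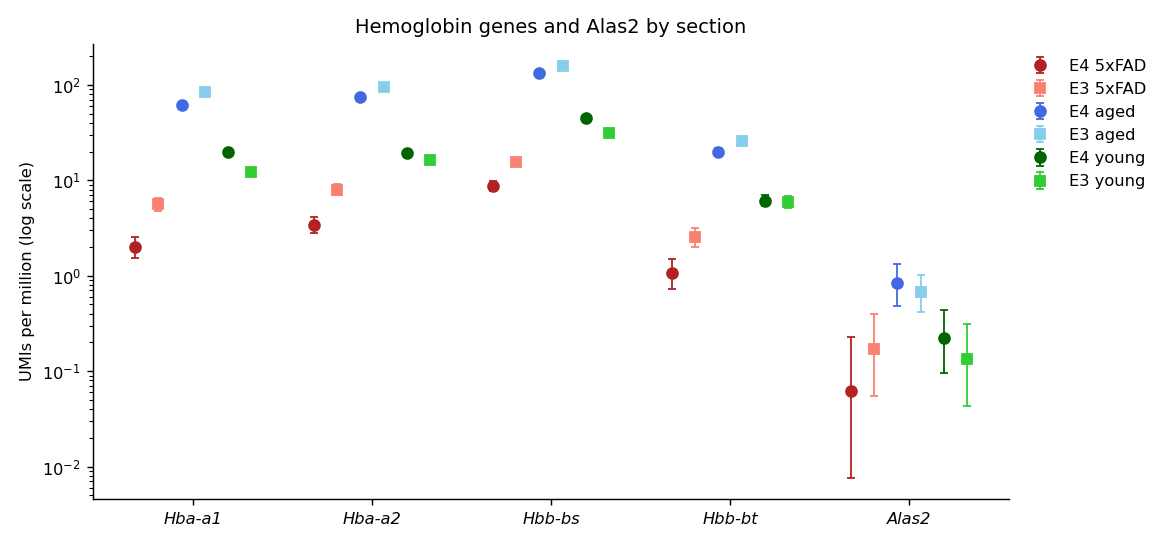
Level of each gene by section, in CPM on a log axis, with E4 as circles, E3 as squares and bars for the exact Poisson 95% interval (counting error only). Both aged sections lie above both young sections and these above both 5xFAD sections for the 4 globin genes, while the bars of Alas2, which rests on 2 to 21 UMIs, overlap for many pairs.

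Other genes of the red cell lineage were all but missing. The erythroid-restricted list (12 genes found in the files, among them the band 3 anion exchanger Slc4a1 and the transcription factors Klf1 and Gata1) summed to 19 to 41 UMIs in a section, with Gata1 and Rhag at 0 in all 6, and its level ranged from 0.526 CPM in E4 young to 1.25 CPM in E3 aged. The embryonic globins Hba-x, Hbb-bh1 and Hbb-bh2 had 0 UMIs in every section, out of 186688022 UMIs in all. Hbb-y, a further embryonic gene, had 19 UMIs in all, none of them in the aged sections. Neuroglobin of neurons and cytoglobin of fibroblast-like and other cells were present at 9.38 to 30.1 CPM (Ngb, highest in E4 aged and next in E3 5xFAD) and 52.9 to 61.6 CPM (Cygb, highest in E3 5xFAD). The 10 heme pathway genes other than Alas2 (Alas1 among them) summed to 354 to 389 CPM, a range of 1.10 times, beside the 23.7 times of hemoglobin.

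Among genes of other blood cells, S100a8 and S100a9, which encode calprotectin of neutrophils, had most UMIs in E4 aged. S100a8 had 2 UMIs in E4 5xFAD, 6 in E3 5xFAD, 85 in E4 aged, 31 in E3 aged, 32 in E4 young and 6 in E3 young, and S100a9 had 11, 11, 57, 37, 40 and 4. The whole neutrophil list of 12 genes summed to 10.3 CPM in E4 aged, 3.90 CPM in E3 aged and 1.87 to 3.99 CPM in the other 4 sections, and Ly6g was at 0 in all 6. The platelet list (8 genes) ranged from 12.2 to 17.1 CPM and was lowest in E4 aged.

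Vessel gene lists varied far less than hemoglobin. The endothelial list of 19 genes summed to 486 to 533 CPM over the 6 sections (1.09 times), the pericyte list of 10 genes to 146 to 173 CPM (1.18 times), the smooth muscle list of 10 genes to 46.5 to 67.0 CPM (1.44 times) and the leptomeningeal fibroblast list of 11 genes to 61.8 to 104 CPM (1.68 times). The arterial endothelial list ranged from 68.3 to 75.1 CPM (1.10 times). The venous endothelial list had the widest range of these (1.71 times). It was lowest in E4 5xFAD (90.2 CPM), as hemoglobin was, and highest in E4 aged (154 CPM). Cldn5, the tight junction claudin of brain endothelium, stood at 45.9 CPM in E4 5xFAD, 38.7 CPM in E3 5xFAD, 36.9 CPM in E4 aged, 45.7 CPM in E3 aged, 41.2 CPM in E4 young and 49.9 CPM in E3 young. Acta2, the actin of arterial smooth muscle, was lowest in E4 5xFAD (8.11 CPM) and highest in E3 young (16.5 CPM), with the aged sections in between (12.0 and 12.7 CPM).

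The comparison of aged with young mice asked whether hemoglobin differed with age in both genotypes. In single pairs, E4 aged over E4 young was 1.68 on the log2 scale for the sum (95% counting interval 1.62 to 1.74) and E3 aged over E3 young was 2.47 (2.40 to 2.53). Of the genes with at least 20 UMIs in the pair, 2.49% were more than 2-fold higher in E4 aged than in E4 young and 1.18% in E3 aged than in E3 young, and all 5 members were past 2-fold in both pairs, Alas2 on 17 and 8 UMIs in E4 and on 21 and 5 UMIs in E3. The additive model over genotype and condition, fitted to all 6 sections with edgeR's quasi-likelihood test on 16481 genes, left 2 residual degrees of freedom, and its p-values measure only the spread between these sections, which may be technical.

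In that model the aged over young log2 difference was 2.15 ± 0.40 (SE) for Hba-a1, 2.20 ± 0.29 for Hba-a2, 1.92 ± 0.28 for Hbb-bs, 1.88 ± 0.26 for Hbb-bt and 2.05 ± 0.56 for Alas2. None passed after Benjamini-Hochberg adjustment over all genes (adjusted p = 0.546, 0.268, 0.346, 0.310 and 0.999), nor did any other gene: edgeR called 0 of 16481 (0%), with 715 genes (4.34%) at an unadjusted p under 0.05, the 5 members among them. DESeq2 on the same sums called 42 genes (0.255%), 31 of them higher (0.188%), among them Hba-a2 (adjusted p = 0.0121), Hbb-bs (adjusted p = 0.0311) and Hbb-bt (adjusted p = 9.46e-07) but not Hba-a1 (adjusted p = 0.687) or Alas2. With no filter on low counts edgeR called 21 of 22999 genes (0.0913%), among them Hba-a2 (adjusted p = 0.0164), Hbb-bs (adjusted p = 0.0291) and Hbb-bt (adjusted p = 0.0257). Without the E4 young section edgeR gave adjusted p = 0.0216, 0.0213, 0.0143 and 0.0604 for Hba-a1, Hba-a2, Hbb-bs and Hbb-bt, and without the E3 young section adjusted p = 0.0910, 0.0284, 0.0244 and 0.0910, while no member passed without any 1 of the other 4 sections. The differences of the globin genes were 2.26 to 2.97 without E4 young and 1.42 to 1.76 without E3 young, and 2.51 to 3.06 without the richest hundredth of spots. The medians of the vessel lists in this comparison were -0.10 (endothelial), -0.25 (smooth muscle), -0.10 (pericyte) and 0.01 (leptomeningeal) beside -0.00 over all genes.

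The difference between aged and young sections was not alike in all regions. Spots were placed in 8 regions by clustering on other genes and naming each cluster by marker genes. In the cortex the 4 globin genes differed by 0.45 ± 0.37 (Hba-a1), 0.54 ± 0.27 (Hba-a2), 0.17 ± 0.28 (Hbb-bs) and -0.09 ± 0.33 (Hbb-bt), and none passed (edgeR, adjusted p = 0.963 to 0.995, 0.0201% of 14953 genes called). In the hippocampus they differed by 2.75 ± 0.29, 2.78 ± 0.23, 2.19 ± 0.22 and 2.19 ± 0.36, and all 4 rose (edgeR, adjusted p = 6.59e-05, 5.49e-06, 5.11e-05 and 0.00562), beside 0.588% of 13261 genes called there and 0.317% called higher. A single hippocampal spot of E3 aged held 604 of the 1877 hemoglobin UMIs of that region. As a description with no test, the differences were 3.52 to 4.10 in the thalamus, 1.59 to 2.13 in the hypothalamus, 3.86 to 4.53 in the cerebral nuclei and 4.77 to 5.85 in the fiber tracts, with Hbb-bt below the filter on low counts in the last 2 regions. E3 young had only 13 and 9 hemoglobin UMIs in the cerebral nuclei and the fiber tracts. The difference between regions was not tested, and Alas2 was below that filter in every regional fit.

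The cortex was below the whole-section level in both aged sections and above it in both young sections. It held 108 CPM in E4 aged and 148 CPM in E4 young, a log2 difference of -0.45 (-0.60 to -0.30), and 192 CPM in E3 aged and 95.6 CPM in E3 young, 1.01 (0.91 to 1.10). E4 aged had only 195 cortex spots, beside 717 in E3 aged, 786 in E4 young and 888 in E3 young. Of the E4 aged cortex spots 152 lay in 1 cluster, led by Ccn3 and C1ql3, which held 212 of those of E4 young. In 3 other cortex clusters E4 aged had 10, 1 and 2 spots, and E4 young had 193, 106 and 144. The cortex was thus not made up alike in these sections, and the part of this in the difference was not tested. In the thalamus the levels were 482 CPM in E4 aged and 52.9 CPM in E4 young, and 412 CPM in E3 aged and 20.4 CPM in E3 young, so that both genotypes differed the same way there. Of the 396 thalamus spots of E4 young, 111 came from a cluster that had 0 thalamus markers among its leading genes and was nearly absent from the other sections.

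Across regions, the meninges, the membranes over the brain surface that carry its larger vessels, had the most hemoglobin in 5 of 6 sections. This region was a single cluster of 433 spots with 3 meningeal markers among its 10 leading genes. Its leading genes were those of the pituitary hormones prolactin (Prl) and growth hormone (Gh), so it was not made of meninges markers alone. Their level was 85.3 CPM in E4 5xFAD (27 spots), 250 CPM in E3 5xFAD (108 spots), 1796 CPM in E4 aged (37 spots), 3214 CPM in E3 aged (95 spots), 392 CPM in E4 young (80 spots) and 39.0 CPM in E3 young (86 spots). In E3 young the hypothalamus was highest, at 167 CPM, and 1 of its spots alone held 527 of its 591 hemoglobin UMIs. The lowest region was the hippocampus in both 5xFAD sections (10.3 and 5.27 CPM), the ventricles in both aged sections (85.4 and 133 CPM), the hypothalamus in E4 young (17.2 CPM) and the cerebral nuclei in E3 young (6.02 CPM). The highest region exceeded the lowest by 8.26 to 47.5 times within a section, and every aged region was above the all-region level of both 5xFAD sections.

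**Figure D2:**
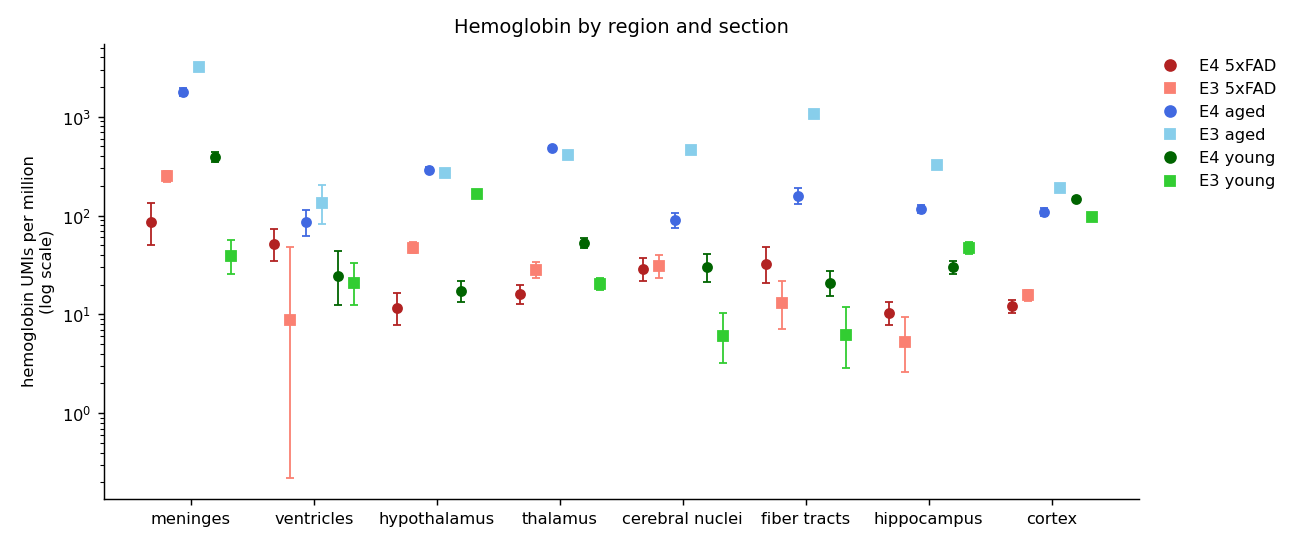
Summed level of the 4 globin genes by region and section, in CPM on a log axis, with exact Poisson 95% intervals as bars (counting error only). The meninges are highest in all sections but E3 young (39.0 CPM), and the cortex, at the right, is the region where the E4 aged section (108 CPM) lies below the E4 young section (148 CPM). The cortex spots of those sections were not made up of the same clusters in like shares.

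In 5xFAD mice, the contrast used to choose the globin genes, all 4 were lower than in young mice in both genotypes. The sum differed by -2.56 on the log2 scale (-2.70 to -2.42) in E4 5xFAD over E4 young and by -1.05 (-1.16 to -0.94) in E3 5xFAD over E3 young, where 2.04% and 1.93% of genes were more than 2-fold lower. In the additive model the differences were -2.20 (Hba-a1), -1.78 (Hba-a2), -1.73 (Hbb-bs), -1.87 (Hbb-bt) and -0.68 (Alas2), in a fit that called 20 of 16481 genes lower (0.121%). Outside the regions that chose the genes, the sum in the thalamus was 16.1 CPM in E4 5xFAD and 52.9 CPM in E4 young, but 28.1 CPM in E3 5xFAD and 20.4 CPM in E3 young. In the cerebral nuclei it was 28.5 CPM in E4 5xFAD and 30.2 CPM in E4 young, and 30.6 CPM in E3 5xFAD and 6.02 CPM in E3 young. In the hypothalamus the log2 differences were -0.58 (-1.25 to 0.06) in E4 and -1.82 (-2.03 to -1.61) in E3. In the fiber tracts the differences were 0.63 (-0.14 to 1.38) in E4 and 1.06 (-0.25 to 2.45) in E3, and in the meninges -2.20 (-2.97 to -1.51) in E4 and 2.68 (2.10 to 3.32) in E3. The aged and the 5xFAD comparisons share the young sections, so they are not independent of each other.

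No member passed the test between E4 and E3 mice over whole sections. The E4 over E3 log2 difference was -0.27 ± 0.34 (Hba-a1), -0.36 ± 0.24 (Hba-a2), -0.16 ± 0.24 (Hbb-bs), -0.43 ± 0.22 (Hbb-bt) and 0.11 ± 0.50 (Alas2), with adjusted p = 0.879 to 0.984 by edgeR, where 3 of 16481 genes (0.0182%) were called. The differences of the globin genes by region were -0.35 to -0.04 in the cortex, -1.29 to -0.95 in the hippocampus, 0.01 to 0.62 in the thalamus, -1.13 to -0.94 in the hypothalamus, -1.91 to -1.03 in the cerebral nuclei and -2.54 to -1.61 in the fiber tracts. Of these only Hba-a1 in the fiber tracts (-2.54 ± 0.42, adjusted p = 0.0305 by edgeR) passed the threshold, beside 0.0489% of 10222 genes called lower there. Each regional fit was adjusted over its own genes only, with no correction over regions, so this value is a description. The model also takes 1 genotype difference for all conditions, whereas the single pairs differed in direction. In the fiber tracts the sum was lower in E4 aged than in E3 aged (-2.77, -3.06 to -2.50). It was higher in E4 5xFAD than in E3 5xFAD (1.31, 0.30 to 2.37) and in E4 young than in E3 young (1.73, 0.69 to 2.95). There Hba-a1 had 4 UMIs in each 5xFAD section, 20 in E4 aged and 193 in E3 aged, 73 of them in a single spot. In the cerebral nuclei the sum differed by -0.10 (5xFAD), -2.36 (aged) and 2.33 (young). Over whole sections, too, the direction was not the same in each condition. The whole-section sum differed by -1.05 (-1.21 to -0.89) in E4 5xFAD over E3 5xFAD and by -0.33 (-0.37 to -0.28) in E4 aged over E3 aged. It differed by 0.46 (0.38 to 0.53) in E4 young over E3 young.

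Within a section hemoglobin was held by few spots. A hemoglobin UMI was seen in 8.80% of spots in E4 5xFAD, 11.2% in E3 5xFAD, 52.0% in E4 aged, 56.5% in E3 aged, 27.9% in E4 young and 19.4% in E3 young. The richest hundredth of spots (17 to 28 spots) held 51.4%, 66.1%, 51.0%, 56.8%, 66.2% and 73.5% of a section's hemoglobin UMIs in the same order. The single richest spot had 31 UMIs in E4 5xFAD (6.33% of the section's total), 151 in E3 5xFAD (16.1%), 469 in E4 aged (8.0%), 647 in E3 aged (5.72%), 365 in E4 young (11.2%) and 527 in E3 young (21.6%). With those spots set aside the sections kept their order at 7.51, 10.9, 143, 158, 30.7 and 17.6 CPM, so the aged sections were also higher in the many spots with little hemoglobin.

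**Figure D3:**
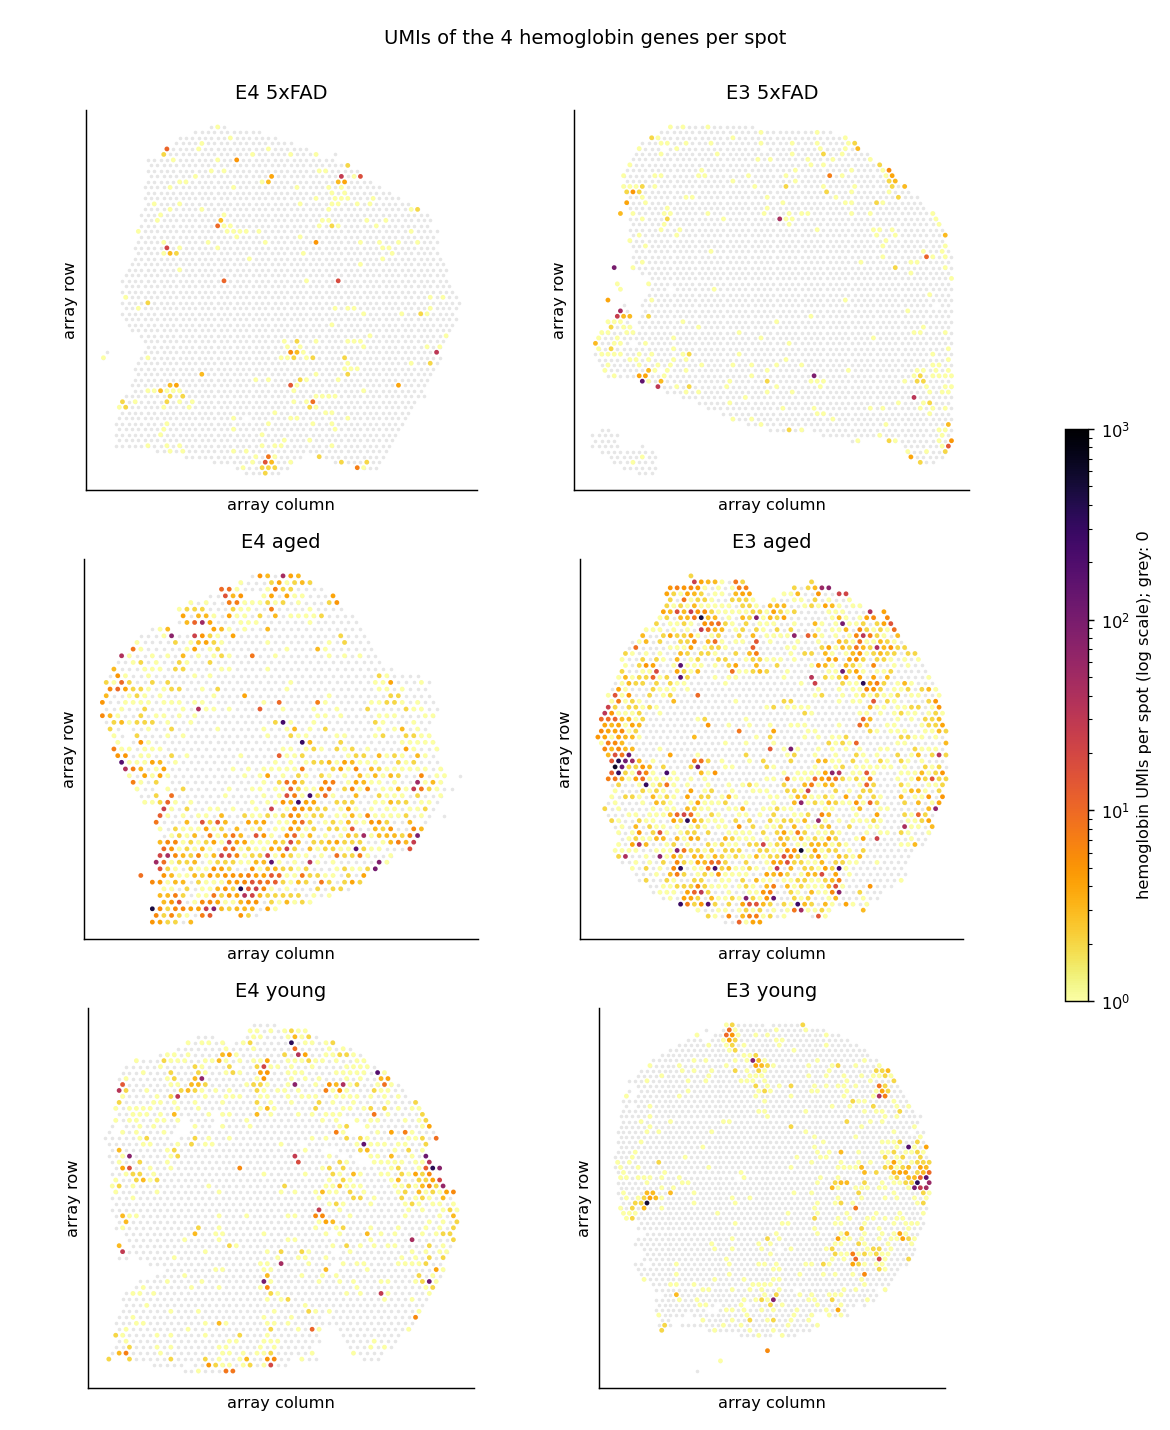
Hemoglobin UMIs per spot in each section, at the spots' array rows and columns, on a log colour scale with spots of 0 UMIs in grey. Both aged sections show UMIs over much of the tissue (52.0% and 56.5% of spots), whereas the 5xFAD and young sections show scattered clumps.

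Around the richest spots the level was followed by distance on the array, where the drop from the richest spots to their neighbours is set by the choice of those spots. The richest hundredth itself had 629 CPM in E4 5xFAD, 1569 CPM in E3 5xFAD, 10951 CPM in E4 aged, 19478 CPM in E3 aged, 4626 CPM in E4 young and 3477 CPM in E3 young. Spots 1 step away had 25.0, 27.2, 352, 289, 91.1 and 65.9 CPM in the same order, and spots 5 or more steps away had 5.39, 8.76, 115, 144, 25.4 and 10.8 CPM. The level 1 step away was thus above the level far off in all 6 sections, and their intervals did not overlap in any.

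**Figure D4:**
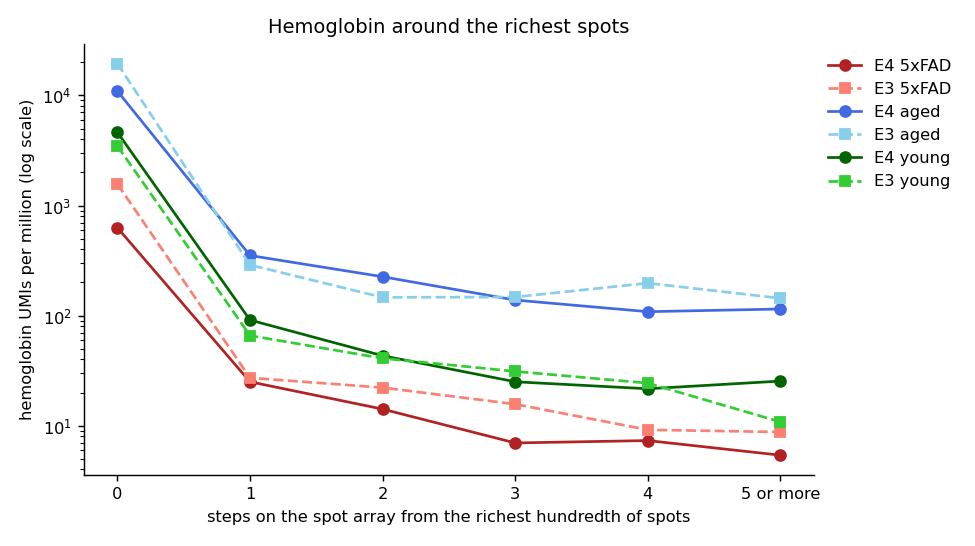
Hemoglobin level against the distance from the richest hundredth of spots, counted in steps on the spot array, on a log axis, with E4 as solid and E3 as dashed lines. The richest spots were chosen by hemoglobin, so the drop to the first step is set by that choice; from there the level at 1 step lies above that at 5 or more steps in all 6 sections, and the aged sections level off at 109 to 197 CPM from step 3 on, above the young sections at 10.8 to 31.1 CPM.

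The same was seen in Moran's I, a measure of likeness between neighbours that is near 0 for an even scatter. Over the 6 nearest neighbours and on log-scaled values it was 0.0839 in E4 5xFAD, 0.0963 in E3 5xFAD, 0.217 in E4 aged, 0.213 in E3 aged, 0.163 in E4 young and 0.249 in E3 young, above the median over all genes with at least 200 UMIs in each section (0.0330 to 0.0638). That median is of single genes, whereas the hemoglobin value is of a sum. From 5.55% (E3 young) to 35.0% (E4 5xFAD) of genes lay above the sum. Hbb-bs alone ran from 0.0417 in E3 5xFAD, where the median was 0.0412, to 0.185 in E3 aged. On raw UMIs, where the few richest spots weigh most, the value of the sum was 0.0226 to 0.111. It was below the all-gene median (0.113 to 0.221) in all 6. The log-scaled values of the summed endothelial list were 0.0626 to 0.203 and those of the summed smooth muscle list 0.0688 to 0.169. Those of the summed leptomeningeal list were 0.151 to 0.277. They lay above hemoglobin in E4 5xFAD, E3 5xFAD, E3 aged and E3 young, and below it in E4 aged and E4 young.

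The levels of the globin genes were correlated over spots, least so for Hba-a2 and Hbb-bt. Across spots, the correlation of log-scaled levels was 0.49 to 0.73 between Hba-a1 and Hba-a2, 0.58 to 0.74 between Hba-a1 and Hbb-bs, 0.40 to 0.68 between Hba-a1 and Hbb-bt, 0.45 to 0.70 between Hba-a2 and Hbb-bs, 0.15 to 0.64 between Hba-a2 and Hbb-bt and 0.39 to 0.63 between Hbb-bs and Hbb-bt in the 6 sections, a description over spots that share a library. Alas2 followed them: of its 58 UMIs, 57 lay in spots with a hemoglobin UMI, 45 (exact binomial interval 64.7% to 87.5%) in the richest 10% of spots by hemoglobin and 38 in the richest hundredth.

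The share of the alpha counts given to Hba-a1 differed between rich and other spots. It was 51.3% in E4 5xFAD, 50.2% in E3 5xFAD, 49.9% in E4 aged, 49.4% in E3 aged, 53.0% in E4 young and 47.0% in E3 young in the richest hundredth of spots, and 25.0%, 26.8%, 40.1%, 43.7%, 43.5% and 31.0% in the other spots. The difference averaged 15.1 ± 8.28 percentage points (SD, n = 6 sections) and was positive in 6 of 6 sections, and this pattern was looked at after the values had been seen, so it carries no test. The share of Hbb-bt in the beta counts was 13.5% ± 3.42 in rich and 12.4% ± 1.50 in other spots, and the share of the alpha genes in all 4 was 44.3% ± 6.14 and 42.4% ± 3.95 (SD, n = 6 each).

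Hemoglobin was then set against vessel markers within sections. In each section and region, hemoglobin-rich spots were those above 0 in the top 10% by the share of UMIs from the 4 genes (174 to 246 spots per section, holding 73.8% to 95.7% of its hemoglobin) and hemoglobin-poor spots those at or below the median, which had 0 hemoglobin UMIs in the 5xFAD and young sections and 19.2 and 18.5 CPM in E4 aged and E3 aged. Rich spots were deeper in 5 of 6 sections, most so in E4 5xFAD (medians of 16493.5 UMIs in rich and 11852.5 UMIs in poor spots), and not in E3 young (12964 and 13230.5 UMIs). The summed counts of the 12 spot groups were compared by edgeR's quasi-likelihood test with the section as a block, leaving the 5 members out.

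Of 14435 genes, 5 (0.0346%) passed, and none was a vessel gene. The pituitary hormones prolactin (Prl, 2.16 ± 0.24 on the log2 scale, adjusted p = 6.63e-05) and growth hormone (Gh, 2.12 ± 0.26, adjusted p = 0.000125) and the dynein light chain gene Dynlrb2 (1.06 ± 0.16, adjusted p = 0.00547), which is linked to cilia, were higher in hemoglobin-rich spots in 6 of 6 sections. Prl had 14.4 CPM in rich and 7.89 CPM in poor spots of E4 5xFAD, 53.5 and 7.76 CPM in E3 5xFAD, 75.8 and 6.07 CPM in E4 aged, 41.1 and 10.1 CPM in E3 aged, 11.8 and 1.23 CPM in E4 young and 9.25 and 6.81 CPM in E3 young. The hippocampal neuron genes Spink8 (-0.66 ± 0.12, adjusted p = 0.0271, lower in 6 of 6) and Fibcd1 (-0.69 ± 0.13, adjusted p = 0.0497, lower in 5 of 6) fell. Prl and Gh were also the leading genes of the cluster named as meninges. No gene passed with spots of the meninges and ventricles left out, or with the rich spots taken within sections only. These alternatives had 861 and 1046 genes at an unadjusted p under 0.05.

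No vessel list had a gene past the threshold, though their members leaned one way. All 19 endothelial genes had a log2 difference above 0 (median 0.12), as did all 9 pericyte genes tested (0.25), all 8 smooth muscle genes tested (0.44), all 11 leptomeningeal genes (0.44) and all 3 border macrophage genes tested (0.58), beside a median of -0.00 over all genes. So did all 8 astrocyte genes (0.12) and all 11 RNA quality genes (0.09), and the part of these and of depth in the vessel values was not tested. Among the defining markers, Acta2 differed by 0.55 ± 0.14 (adjusted p = 0.186), Cldn5 by 0.21 ± 0.07 (adjusted p = 0.345), Dcn, a collagen-binding proteoglycan of fibroblasts, by 0.28 ± 0.16 (adjusted p = 0.806) and Ttr, the transthyretin of the choroid plexus, by -0.09 ± 0.13 (adjusted p = 0.966), all by edgeR. Venous endothelial genes (3 of 6 above 0, median -0.00) and platelet genes (1 of 2 tested) showed no such lean.

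**Figure D5:**
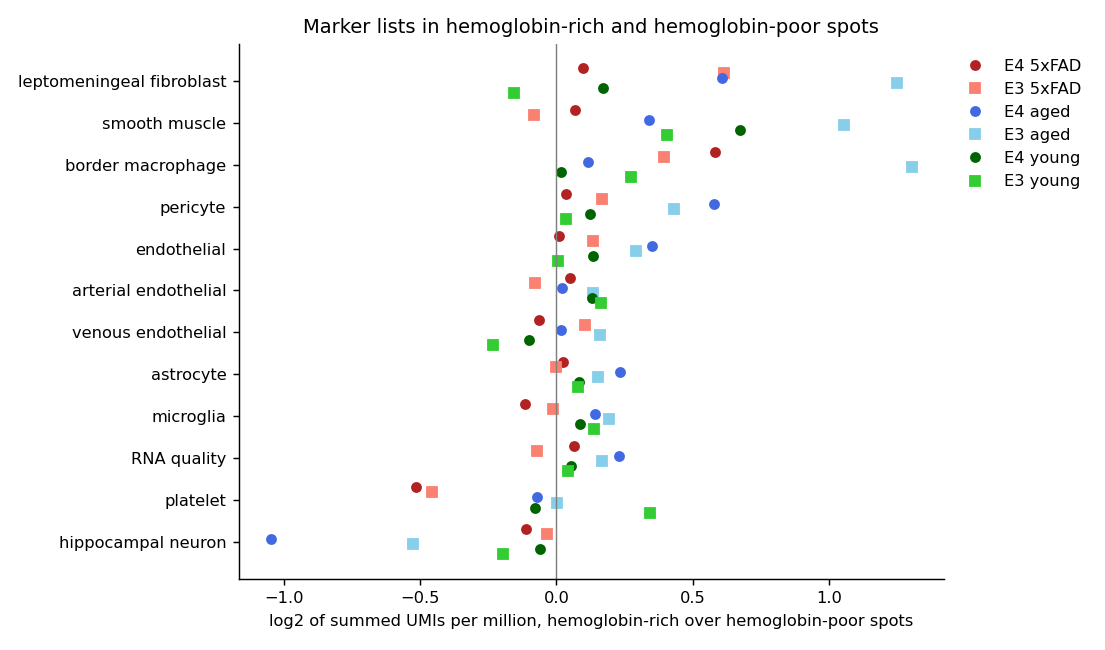
Log2 of the summed CPM of 12 marker lists in hemoglobin-rich over hemoglobin-poor spots, 1 point per section, with E4 as circles and E3 as squares. The endothelial, pericyte and border macrophage lists lie above 0 in 6 of 6 sections and the hippocampal neuron list below 0 in 6 of 6, and the leptomeningeal list runs from -0.16 to 1.25.

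By section, the summed leptomeningeal list was 1.25 higher on the log2 scale in rich spots of E3 aged and -0.16 in E3 young, and the smooth muscle list ran from -0.08 in E3 5xFAD to 1.06 in E3 aged. In the richest hundredth of E3 aged spots the smooth muscle list reached 455 CPM, against 50.5 CPM 1 step away, a size not seen in the other 5 sections (25.2 to 88.2 CPM in their richest spots). Asked the other way round, the hemoglobin level was higher in spots rich than in spots poor in leptomeningeal genes in 6 of 6 sections (1.38 to 3.49 times), in endothelial genes in 5 of 6 (0.298 times in E3 young, up to 6.41 times in E4 young), in pericyte genes in 5 of 6 (0.277 to 4.43 times) and in smooth muscle genes in 3 of 6 (0.460 to 2.75 times). For arterial and venous endothelial genes it was higher in 2 of 6 and 3 of 6. This lean was not particular to vessel lists: hemoglobin was also higher in spots rich in microglia genes in 5 of 6 (0.362 to 5.47 times). For astrocyte genes that held in 1 of 6. The share of spots with any hemoglobin UMI was not higher in spots rich in endothelial genes in any section, and those spots were shallower than the poor ones.

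The genes whose levels across spots were most like summed hemoglobin were only weakly so. Among the 10 highest by mean Pearson correlation over the 6 sections, of 9748 genes, were Igf2, Mgp, mt-Nd5, Slc13a3, Vtn, mt-Co1, Slc1a3, Igfbp2 and Id3, at 0.0779 to 0.0940 beside a median of 0.0127 over these genes. Igf2 is made by leptomeningeal fibroblasts, Mgp by vessel walls, Vtn by pericytes and Slc1a3 by astrocytes, while mt-Nd5 and mt-Co1 are mitochondrial transcripts. Igf2 reached 0.191 in E3 aged and was -0.00 in E3 young.

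Across the 6 sections, the 5 genes most like hemoglobin on the log2 scale, of 1151 that varied by at least 1 log2 unit, were 1700016P03Rik (Pearson's r 0.988), Apold1 (0.981), Klf4 (0.977), Ntf3 (0.935) and Klf2 (0.931). Apold1 is an early response gene of endothelium, and Klf4 and Klf2 are transcription factors that endothelium raises under flow. Klf2 had 11.5 CPM in E4 5xFAD, 14.5 CPM in E3 5xFAD, 21.7 CPM in E4 aged, 27.2 CPM in E3 aged, 18.4 CPM in E4 young and 12.9 CPM in E3 young, a far narrower range than hemoglobin. With 6 sections from 3 conditions, and genes picked for their likeness out of many, these values describe the sections and carry no p.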

How the data were processed

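Per the labels and the study's methods, the authors made the deposited files with Space Ranger 1.3.0 and STAR 2.5.1b; the methods name mm10 alone, while the processing notes add GRCh38 and the files hold genes of both; the deposited counts are raw UMI counts, made by the authors, per gene and spot barcode, not normalized, beside a table of spot positions with a tissue flag. The matrix headers give version 2.0.0 for E3 5xFAD and 1.2.2 for the other 5 sections, neither of them the stated version.

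The mouse genes were kept, and spots in both mask and matrix were used. Spots were clustered by Leiden on 3000 variable genes and 20 principal components after centring each section (leidenalg 0.10.2). A cluster was named for the region with at least 3 of its markers among the cluster's 10 leading genes. Failing that, it was named for the region with the highest mean scaled marker level. All cortex clusters, with 1 or 2 markers among those genes, were named in this second way. So were a hypothalamus cluster of 572 spots with 1 marker and a thalamus cluster of 117 spots with 0 markers. Of the latter, 111 spots were in E4 young. A cluster of 143 spots led by genes of the habenula was left unnamed. No doublet caller was run on spots. CPM is UMIs per 1000000 of all UMIs of the spots summed. Counts summed over spots were tested with edgeR 4.0.16 (quasi-likelihood, TMM, filterByExpr, two-sided, Benjamini-Hochberg, threshold 0.05), with DESeq2 1.42.0 as an alternative. On simulated data the aged against young fit recovered 199 of 200 genes changed 4-fold among 16481 genes, with 7 false calls. The simulation gave all genes 1 common spread and changed only genes above a minimum mean count. Its counts therefore do not say how often such a change would be found in the globin genes. The members and lists were chosen with earlier results of these data known. Named genes are the members, the list genes and the 10 genes of largest fold called between rich and poor spots, the 10 most like hemoglobin over spots (1 is not reported here) and 5 over sections, and Acta2, Cldn5, Dcn and Ttr; other genes named for their blood or globin role were chosen after their values were seen.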

Additional observations from a re-analysis of the deposited data

Results flagged for a closer look

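The direction between genotypes was not alike over conditions. The log2 difference in summed hemoglobin was -1.05 in E4 5xFAD over E3 5xFAD and -0.33 in E4 aged over E3 aged, but 0.46 in E4 young over E3 young. The cortex differed by -0.45 in E4 aged over E4 young and by 1.01 in E3 aged over E3 young. Of the 195 cortex spots of E4 aged, 152 lay in 1 cluster, so its cortex was not made up as in E4 young. The meninges differed by -2.20 in E4 5xFAD over E4 young and by 2.68 in E3 5xFAD over E3 young, and the thalamus by -1.71 and 0.46 in the same pairs. Each value rests on 1 section per group, and the difference between these values was not tested.

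Barcodes outside the tissue mask, which entered only the all-barcode alternatives, also held hemoglobin: 23.6 CPM in E4 5xFAD, 929 CPM in E4 aged, 714 CPM in E3 aged, 307 CPM in E4 young and 78.3 CPM in E3 young. In these sections the mask fitted the barcodes better after a quarter-turn, so such barcodes need not lie off the tissue. These were 1.54, 3.22, 1.97, 3.42 and 1.2 times the levels within the mask, where the median gene stood at 0.967 to 1.08 times. In E3 young 25.3% of genes had a ratio above that of hemoglobin, against 0.357% to 3.20% in the other 4. E3 5xFAD had only 6 such barcodes and no hemoglobin UMI in them.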

How the results depend on the processing

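Between hemoglobin-rich and hemoglobin-poor spots, the 5 genes called became 149 with no filter on low counts, 20 with the top twentieth of spots as rich, 13 in spots of at least 5000 UMIs, 53 with all barcodes, 0 within sections only, 0 without meninges and ventricles, and 3 to 13 with 1 section left out. Aged against young, the 0 genes called became 42 by DESeq2, 21 with no filter, 3 in the cortex, 78 in the hippocampus and 4 to 47 with 1 section left out. E4 against E3, the 3 genes became 15 by DESeq2, 6 with no filter, 13 in the hippocampus and 0 to 25 with 1 section left out (0 without either 5xFAD section, 25 without E3 young). 5xFAD against young, the 145 genes became 260 by DESeq2, 281 with no filter and 25 to 239 with 1 section left out (25 without E4 5xFAD). The cause of these shifts was not tested.

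Of the members' values under alternatives, the aged difference in Hbb-bt turned to -0.094 in the cortex. Between E4 and E3, Hba-a1 turned to 0.089 and Hbb-bs to 0.16 without the richest hundredth of spots, and Alas2 to -0.027 by DESeq2. With 1 section left out the E4 over E3 difference ran from -0.82 to 0.085 (Hba-a1), from -0.54 to 0.12 (Hbb-bs) and from -0.12 to 0.45 (Alas2), and the 5xFAD difference of Alas2 from -1.74 to 0.13. Clumping on raw UMIs exceeded the all-gene median in 0 of 6 sections. No paired analysis was possible because each group has 1 section, so that replicate numbers pair nothing; rich and poor spots were compared within sections in the main test. Alas2 rests on 2 to 21 UMIs per section, which leaves wide intervals for its differences.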
